A study of Homo sapiens with 4 samples.

Results

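Src family tyrosine kinases and the focal adhesion kinase axis were followed in 2 human gastric cancer cell lines given a cardiac glycoside. The set held 8 genes, chosen by name among 62710 Ensembl genes: the kinases SRC, YES1, FYN and LYN, the Src-inhibiting kinase CSK, focal adhesion kinase (PTK2), and the adhesion scaffolds BCAR1 (p130Cas) and PXN (paxillin). All 8 were in the table and all 8 passed the filter on low values. HGC27, a line from an undifferentiated gastric carcinoma, and MKN45, a line from a poorly differentiated gastric adenocarcinoma, were grown in serum-supplemented medium. Cultures received periplocymarin, a cardiac glycoside, at 0.3 µM, or DMSO at 0.1% as vehicle, and were harvested after 24 h. Each of these 4 groups (periplocymarin HGC27, DMSO HGC27, periplocymarin MKN45, DMSO MKN45) was 1 messenger RNA library, and within a line no test could therefore be made. Each line is a single established culture.

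Src family kinases are attached to the inner face of the plasma membrane and are held shut when CSK phosphorylates a tyrosine in their tail. At integrin contacts PTK2 phosphorylates itself, binds a Src family kinase, and the pair phosphorylates BCAR1 and PXN, which bring in Crk adaptors and the actin machinery. Cardiac glycosides have been proposed to act on Src signalling near caveolae. All of these events are phosphorylations and contacts between proteins, whereas the libraries report only mRNA levels.

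The libraries held between 24822519 and 36321194 reads as recovered from the deposited values. These values are FPKM (reads scaled to gene length and to a library size), and that size is not the recovered total. It was 0.9489 of that total in periplocymarin HGC27 and 1.2095 of it in DMSO HGC27. In MKN45 it was 0.8657 with periplocymarin and 1.0148 with DMSO. Each ratio of treated to vehicle FPKM is therefore higher than with library totals alone. The lines differed in the markers of their cell type. Of 9 epithelial markers, including the adhesion receptor EPCAM and the keratins KRT8 and KRT18, none reached 1 FPKM in periplocymarin HGC27 and 2 did in DMSO HGC27, while all 9 did in both MKN45 libraries. EPCAM was listed at 0 in periplocymarin HGC27 and at 0.179 FPKM in DMSO HGC27. Summed epithelial FPKM was 0.734 in periplocymarin HGC27 and 10.1 in DMSO HGC27, and 3025 in periplocymarin MKN45 and 1732 in DMSO MKN45. Of 9 mesenchymal markers 8 reached 1 FPKM in both HGC27 libraries and none in either MKN45 library. Summed over 5 endothelial markers the level was at most 0.102 FPKM in any library. Of 8 blood cell markers none reached 1 FPKM in HGC27, and the 2 that did in MKN45 were CD68 and LYZ, which are also made outside blood, while the pan-leukocyte marker PTPRC was at 0 in both MKN45 libraries and in periplocymarin HGC27, and at 0.0221 FPKM in DMSO HGC27.

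FYN, a kinase found in most tissues and best known in T cells and neurons, was the member that fell after periplocymarin. It stood at 1.29 FPKM in periplocymarin HGC27 and 3.47 FPKM in DMSO HGC27, and at 0.951 FPKM in periplocymarin MKN45 and 5.43 FPKM in DMSO MKN45. Both treated libraries lay below both vehicle libraries. The treated level was 0.373 of the vehicle level in HGC27 (95% Clopper-Pearson interval of the read share, 0.321 to 0.433) and 0.175 of it in MKN45 (0.148 to 0.206). Such intervals cover counting error only. Both FYN differences, -0.96 in HGC27 and -1.72 in MKN45 on the log2(FPKM + 1) scale, lay below the lower quartile of genes of like level in that line (-0.85 and -0.44). Over both lines, with cell line as a block, the fitted difference of log2(FPKM + 1) was -1.34 ± 0.32 (moderated standard error, limma adjusted p = 0.0426), lower in 2 of 2 lines. FYN was the 1 member called among 8, with 0 higher, where 3.17% of all 12353 genes tested were called lower, 3.43% higher and 6.61% either way, so a count of 1 among 8 is no result about the set. Its call was lost under quantile normalization (-1.11, adjusted p = 0.0735), under cyclic loess normalization (-1.09, adjusted p = 0.0777), with no low-value filter (adjusted p = 0.346) and with no line block (adjusted p = 0.828). In bulk libraries such as these, fewer cells that make a transcript and less of it per cell cannot be told apart.

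FYN spans 111660332 to 111873452 on the minus strand of chromosome 6 (GRCh38, GENCODE 29), and no antisense exon overlaps it. YES1 spans 721588 to 812546 on the minus strand of chromosome 18, and the antisense model that overlaps its exons, AP001020.3, was at 0 in every library. RefSeq promoter windows, 250 bases before to 50 after a start, were at hand for 5 of the 8 members, with 13 windows in all. The 2 below are shown because FYN is the member that fell and YES1 is the most abundant Src family mRNA, higher in the treated library of each line. They are the most upstream FYN window (chr6:111873403-111873702) and the YES1 window (chr18:812193-812492), both GRCh38.p14, minus strand, 5′ to 3′, with capitals for GC boxes (GGGCGG, the core of Sp1 sites, either strand) and CCAAT boxes (CCAAT, either strand).
FYN: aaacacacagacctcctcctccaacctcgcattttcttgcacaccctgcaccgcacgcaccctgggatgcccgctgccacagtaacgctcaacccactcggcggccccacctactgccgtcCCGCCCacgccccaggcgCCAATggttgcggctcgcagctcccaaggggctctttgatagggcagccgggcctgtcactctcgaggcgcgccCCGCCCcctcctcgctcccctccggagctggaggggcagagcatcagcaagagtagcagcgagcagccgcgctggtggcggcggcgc
YES1: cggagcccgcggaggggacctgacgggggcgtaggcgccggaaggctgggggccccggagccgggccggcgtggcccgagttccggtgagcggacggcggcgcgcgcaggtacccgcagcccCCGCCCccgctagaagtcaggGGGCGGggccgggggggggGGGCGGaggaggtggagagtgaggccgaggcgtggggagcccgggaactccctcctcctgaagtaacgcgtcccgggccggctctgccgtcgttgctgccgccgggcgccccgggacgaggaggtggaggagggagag
The FYN window holds 2 GC boxes and 1 CCAAT box, and the YES1 window holds 3 GC boxes and 0 CCAAT boxes. GC boxes are in 45.0% and CCAAT boxes in 34.6% of all 35116 windows of this length. Neither window holds a TATA box (TATAAA, 11.5% of windows), an AP-1 site (TGACTCA, 4.95%), a cyclic AMP element (TGACGTCA, 1.85%), an E-box (CACGTG, 7.26%) or the TEAD core (GGAATG, 14.0%), searched on both strands. FYN has 4 annotated windows, which differ in these boxes. Counted from upstream, window 2 holds 8 GC boxes and 0 CCAAT boxes, and windows 3 and 4 hold neither. The data do not show which start is used.

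YES1, the ubiquitous kinase closest to SRC in its catalytic part, was the most abundant member in all 4 libraries. It stood at 71.9 FPKM in periplocymarin HGC27 and 51.5 FPKM in DMSO HGC27, and at 50.8 FPKM in periplocymarin MKN45 and 31.4 FPKM in DMSO MKN45. The treated library was the higher one in each line, by 1.40 times in HGC27 (1.36 to 1.44, counting error only) and 1.61 times in MKN45 (1.56 to 1.67). The fitted difference of 0.57 ± 0.27 did not pass (limma adjusted p = 0.197). Genes of like level were higher too. YES1 differed by 0.47 in HGC27, where all genes at 30 to 100 FPKM had a median of 0.64, and by 0.67 in MKN45, where their median was 0.44. The part of this trend with level in the YES1 difference was not tested. Quantile normalization brought the fitted difference of YES1 down to 0.080 and cyclic loess to 0.073, and within HGC27 it became -0.13 under both.

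SRC (ENSG00000197122, chromosome 20, 37344685 to 37406050, plus strand, GRCh38), the founding member of the family, differed most by line. It stood at 0.155 FPKM in periplocymarin HGC27 and 0.682 FPKM in DMSO HGC27, from 26 and 157 reads, and at 9.39 FPKM in periplocymarin MKN45 and 17.5 FPKM in DMSO MKN45, from 1599 and 4613 reads. HGC27 thus held little SRC mRNA, under 1 FPKM in both libraries. SRC passed the filter only through MKN45. The treated level was 0.227 of the vehicle level in HGC27 (0.144 to 0.345) and 0.536 of it in MKN45 (0.506 to 0.567). Over both lines the fitted difference, on the log2(FPKM + 1) scale that understates the HGC27 change, was -0.69 ± 0.29, and it did not pass (limma adjusted p = 0.161, unadjusted p = 0.0426). In MKN45 the SRC difference of -0.83 lay below the lower quartile of -0.11 among all genes at 10 to 30 FPKM, whose median was 0.32. In HGC27 the difference of -0.54 lay between the quartiles of -0.65 and 0.12 among genes at 0.3 to 1 FPKM.

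LYN (ENSG00000254087, chromosome 8, 55879813 to 56014168, plus strand), a kinase prominent in B cells, moved opposite ways in the lines. It stood at 0.358 FPKM in periplocymarin HGC27 and 1.77 FPKM in DMSO HGC27, and at 6.42 FPKM in periplocymarin MKN45 and 3.87 FPKM in DMSO MKN45. The treated level was 0.203 of the vehicle level in HGC27 (0.149 to 0.272) and 1.66 times it in MKN45 (1.51 to 1.82). The fitted difference over both lines was -0.21 ± 0.40 (limma adjusted p = 0.760), a value that averages 2 opposite movements, and it turned to 0.033 under quantile and 0.031 under cyclic loess normalization. Whether the lines differ in this response could not be tested with 4 libraries.

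**Figure D1:**
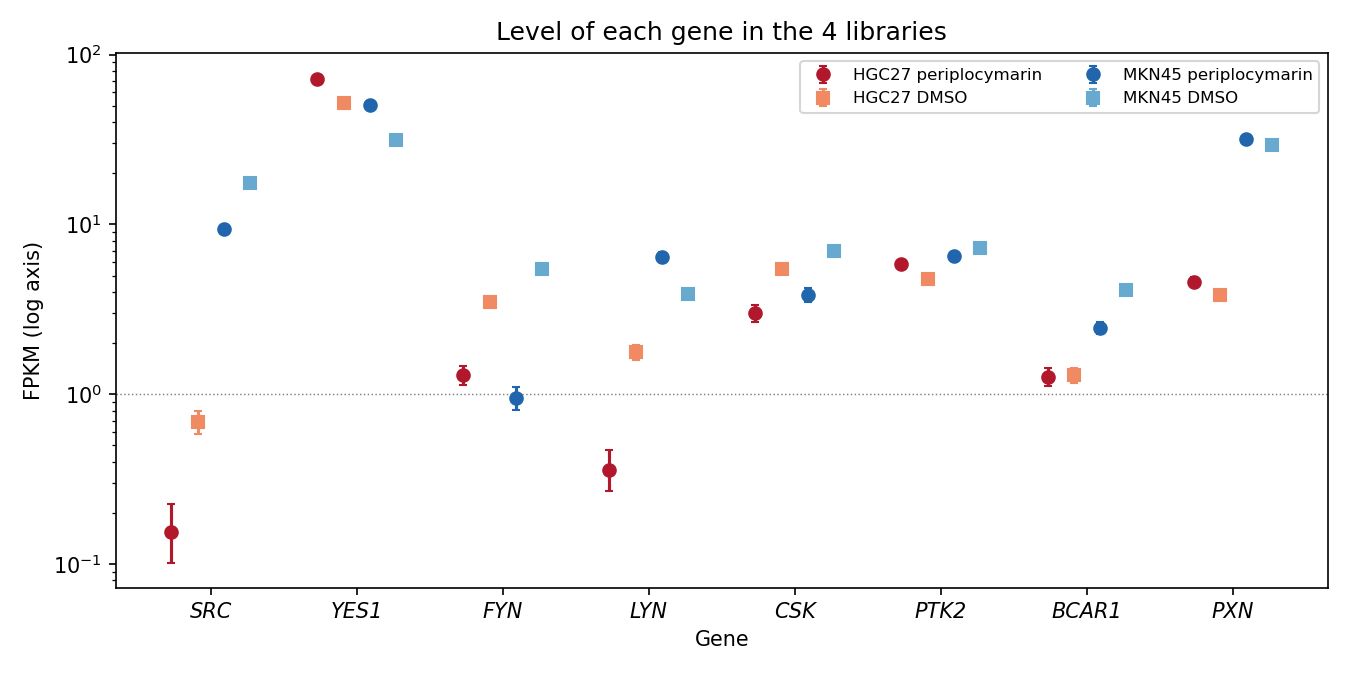
FPKM of the 8 genes (log axis) in the 4 libraries, 1 point per library, with exact Poisson 95% intervals from the recovered reads; red and orange are HGC27, blue tones MKN45, circles periplocymarin and squares DMSO, and the dotted line marks 1 FPKM. YES1 tops each library, SRC in HGC27 is the lowest, and both FYN circles lie below both FYN squares.

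CSK (ENSG00000103653, chromosome 15, 74782057 to 74803198, plus strand), which switches the family off, was lower in the treated library of each line by a similar ratio. It stood at 2.99 FPKM in periplocymarin HGC27 and 5.48 FPKM in DMSO HGC27, and at 3.85 FPKM in periplocymarin MKN45 and 6.99 FPKM in DMSO MKN45. Its treated libraries lay below both vehicle libraries, as did those of FYN. The treated level was 0.545 of the vehicle level in HGC27 (0.477 to 0.621) and 0.550 of it in MKN45 (0.491 to 0.616). The fitted difference of -0.71 ± 0.29 did not pass (limma adjusted p = 0.141, unadjusted p = 0.0334), and over the 7 alternatives that kept the gene it ranged from -0.95 to -0.67 with adjusted p from 0.0502 to 0.833. These 2 members, FYN and CSK, were the ones whose treated and vehicle libraries did not overlap, where 36.3% of all genes tested had no overlap.

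YES1 made up the largest part of the family mRNA in every library, though less than the other kinases together in DMSO MKN45. As a percent of the summed FPKM of SRC, YES1, FYN, LYN, FGR, LCK and BLK, YES1 made up 97.5% in periplocymarin HGC27 and 89.7% in DMSO HGC27, and 74.2% in periplocymarin MKN45 and 48.6% in DMSO MKN45. SRC made up 0.210% in periplocymarin HGC27 and 1.19% in DMSO HGC27, and 13.7% in periplocymarin MKN45 and 27.1% in DMSO MKN45. FYN took 1.76% in periplocymarin HGC27 and 6.05% in DMSO HGC27, and 1.39% in periplocymarin MKN45 and 8.39% in DMSO MKN45. The sum itself was 73.7 FPKM in periplocymarin HGC27 and 57.4 FPKM in DMSO HGC27, and 68.4 FPKM in periplocymarin MKN45 and 64.7 FPKM in DMSO MKN45. In both lines the YES1 share was larger in the treated library. CSK, set against the same sum, came to 4.05% of it in periplocymarin HGC27 and 9.55% in DMSO HGC27, and to 5.62% in periplocymarin MKN45 and 10.8% in DMSO MKN45. With 1 library a group these shares carry no test.

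**Figure D2:**
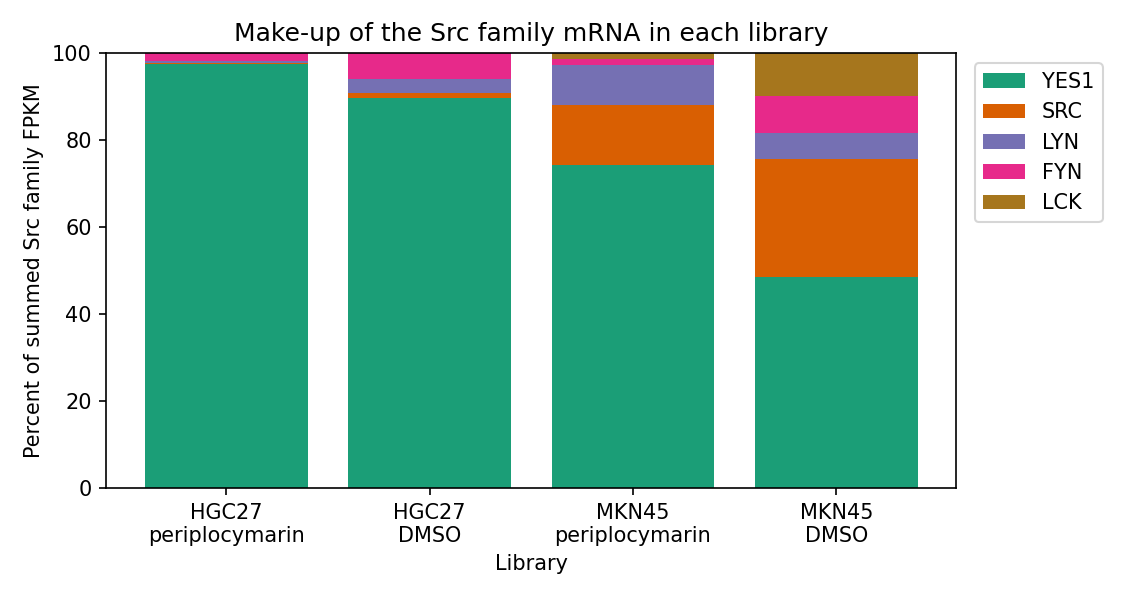
Percent of the summed Src family FPKM (vertical axis) taken by each kinase in each library; FGR and BLK were at 0. YES1 fills 97.5% and 89.7% in HGC27, and 74.2% and 48.6% in MKN45, periplocymarin first, and SRC takes 13.7% and 27.1% in MKN45 but at most 1.19% in HGC27.

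Among the other kinases of the family and their nearest relatives, 3 of 7 were tested and none passed. LCK, the T cell member, was listed at 0 in both HGC27 libraries, at 0.881 FPKM in periplocymarin MKN45 and at 6.42 FPKM in DMSO MKN45 (fitted difference -0.99 ± 0.45, limma adjusted p = 0.186). It passed the filter through DMSO MKN45 alone. PTK6, the breast tumour kinase, was at 0.129 FPKM in periplocymarin HGC27 and 0.798 FPKM in DMSO HGC27, and at 0.795 FPKM in periplocymarin MKN45 and 4.02 FPKM in DMSO MKN45 (-1.08 ± 0.34, limma adjusted p = 0.0815). PTK6 passed the filter only through DMSO MKN45, the 1 library above 1 FPKM. FRK, a nuclear and epithelial relative, was at 0.0985 FPKM in periplocymarin HGC27 and 0.510 FPKM in DMSO HGC27, and at 7.61 FPKM in periplocymarin MKN45 and 7.23 FPKM in DMSO MKN45 (-0.20 ± 0.31). The blood kinases FGR and BLK were at 0 in every library. SRMS was above 0 in DMSO MKN45 alone, at 0.0864 FPKM.

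PTK2 (ENSG00000169398, chromosome 8, 140657900 to 141002216, minus strand), focal adhesion kinase itself, showed little difference between treatments. It stood at 5.81 FPKM in periplocymarin HGC27 and 4.78 FPKM in DMSO HGC27, and at 6.48 FPKM in periplocymarin MKN45 and 7.24 FPKM in DMSO MKN45. It was 1.21 times the vehicle level in HGC27 (1.14 to 1.29) and 0.895 of it in MKN45 (0.848 to 0.945), so the lines moved opposite ways by small amounts. The fitted difference was 0.048 ± 0.29 (limma adjusted p = 0.936), and it turned to -0.0019 under quantile normalization, -0.198 with library totals alone and -0.041 under cyclic loess. Both lines lay between the quartiles of all genes at 3 to 10 FPKM, which were -0.43 and 0.49 in HGC27 and -0.44 and 0.45 in MKN45.

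The scaffolds downstream of PTK2 did not pass either. PXN (ENSG00000089159, chromosome 12, 120210439 to 120265771, minus strand), which docks at focal adhesions, stood at 4.58 FPKM in periplocymarin HGC27 and 3.86 FPKM in DMSO HGC27, and at 32.0 FPKM in periplocymarin MKN45 and 29.4 FPKM in DMSO MKN45. The treated library was slightly the higher one in each line, with a fitted difference of 0.16 ± 0.28 (limma adjusted p = 0.741) that turned to -0.094 with library totals alone and -0.155 under cyclic loess. BCAR1 (ENSG00000050820, chromosome 16, 75228187 to 75268053, minus strand), the Cas scaffold, stood at 1.26 FPKM in periplocymarin HGC27 and 1.29 FPKM in DMSO HGC27, and at 2.45 FPKM in periplocymarin MKN45 and 4.12 FPKM in DMSO MKN45. The HGC27 ratio of 0.980 had a counting interval of 0.836 to 1.15 that includes no difference, while the MKN45 ratio was 0.595 (0.538 to 0.658). Its fitted difference was -0.29 ± 0.31 (limma adjusted p = 0.568). The antisense genes PXN-AS1 and AC004263.1 overlap exons of PXN and no strand setting is given, so their reads and those of PXN cannot be told apart. PXN-AS1 was at 1.36 FPKM in periplocymarin HGC27 and 1.18 FPKM in DMSO HGC27, and at 1.74 FPKM in periplocymarin MKN45 and 1.62 FPKM in DMSO MKN45. BCAR1 likewise overlaps AC009078.2, listed at 0 in all 4 libraries.

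**Figure D3:**
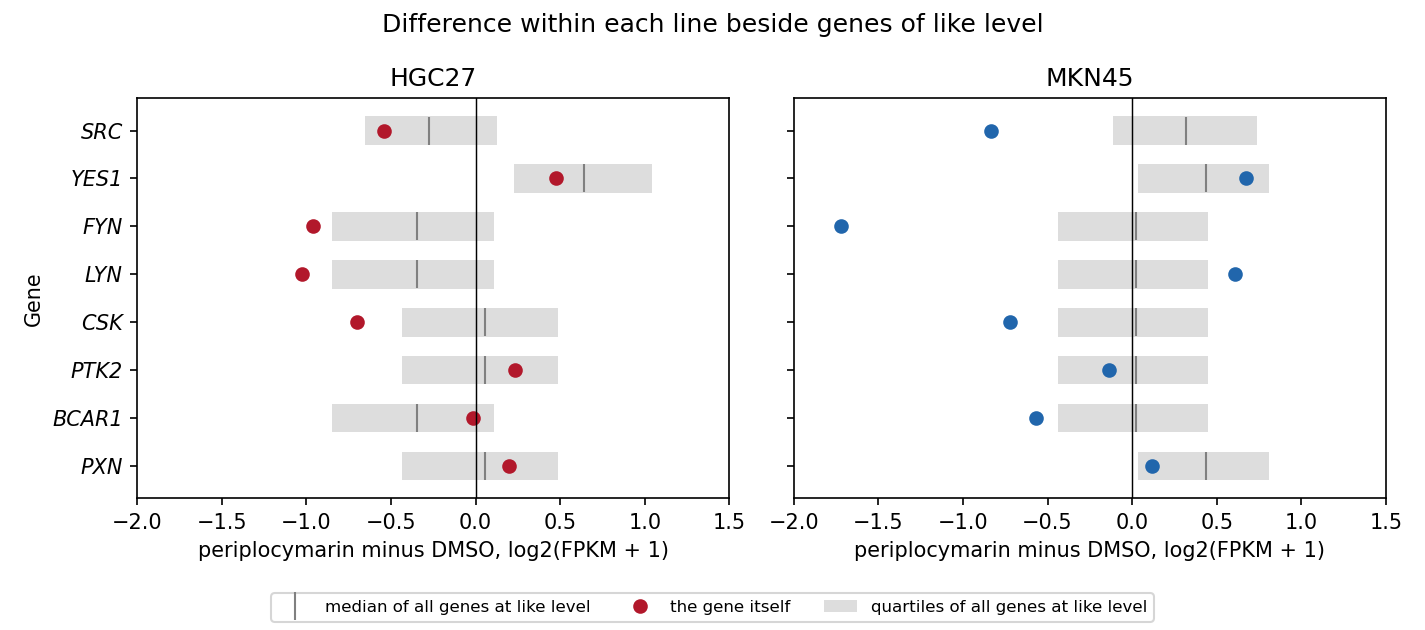
Periplocymarin minus DMSO difference of log2(FPKM + 1) for each gene (points) in HGC27 and MKN45, beside the quartiles (grey bars) and median (grey ticks) of all genes at a like mean level in that line. FYN at -0.96 and -1.72 and CSK at -0.70 and -0.72 lie left of the grey bars in both lines, whereas YES1 and PTK2 lie within them.

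Within a line, a difference of at least 1 on the log2(FPKM + 1) scale was reached by LYN at -1.03 in HGC27, the 1 lower of 7 members that averaged 1 FPKM or more there, and by FYN at -1.72 in MKN45, the 1 lower of 8. No member was higher by that much in either line. Over all measured genes 10.4% were that much lower and 9.72% higher in HGC27, and 8.94% lower and 8.21% higher in MKN45. FYN in HGC27, at -0.96, came just short of that size. LYN averaged 1.06 FPKM in HGC27, 0.358 FPKM treated and 1.77 FPKM with DMSO, and met the 1 FPKM floor only through the vehicle library. FYN in treated MKN45, at 0.951 FPKM, was also under 1 FPKM. In both lines 4 members (SRC, FYN, CSK and BCAR1) were lower and 2 (YES1 and PXN) higher, while LYN and PTK2 differed in sign between lines. This tally depends on the normalization. BCAR1 in HGC27, at -0.02, turned to 0.40 under quantile and 0.28 under cyclic loess normalization. PXN in MKN45, at 0.12, turned to -0.23 under quantile, -0.10 with library totals alone and -0.18 under cyclic loess, and PXN in HGC27, at 0.20, turned to -0.09 with totals alone and -0.13 under cyclic loess. YES1 in HGC27 turned to -0.13 under quantile and cyclic loess, as above. With totals alone PTK2 was lower in both lines, at -0.06 in HGC27 and -0.34 in MKN45. LYN kept opposite signs, and FYN and CSK stayed lower in both lines, under these 3 normalizations. The median over all measured genes was 0.11 in HGC27 and 0.07 in MKN45.

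The lines themselves were farther apart than the treatments for most members. With treatment as the block, SRC was lower in HGC27 than in MKN45 by a fitted log2 difference of -3.32 ± 0.29 (limma adjusted p = 2.71e-05), PXN by -2.60 ± 0.28 (adjusted p = 9.01e-05) and LYN by -1.63 ± 0.40 (adjusted p = 0.0105). These 3 of 8 members were called lower and 0 higher, where 19.6% of all genes tested were called lower in HGC27, 16.3% higher and 35.9% either way. SRC passed the filter through MKN45 alone and so had to differ between lines. The count of 3 among 8, which includes SRC, is therefore no result about the set. The epithelial and mesenchymal markers above also separate the lines, and their part in these differences was not tested. In the vehicle libraries SRC was 25.7 times higher in MKN45 than in HGC27, PXN 7.61 times and LYN 2.19 times. The LYN call was lost with no low-value filter (adjusted p = 0.162) and with no treatment block (adjusted p = 0.0654). BCAR1, at -0.88 ± 0.31, did not pass (adjusted p = 0.0525), though it did with a pseudocount of 0.1 (0.0437) or limma-voom (0.0219). YES1 had the opposite sign, 0.59 ± 0.27 (adjusted p = 0.118), and passed with library totals alone (0.0282) or quantile normalization (0.0366). CSK, FYN and PTK2 did not pass, with fitted values of -0.29, -0.14 and -0.32. The HGC27 and MKN45 libraries did not overlap for 6 of the 8 members, against 55.8% of all genes tested, FYN and CSK being the exceptions. These p-values rest on 2 libraries of each line that also differ in treatment.

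**Figure D4:**
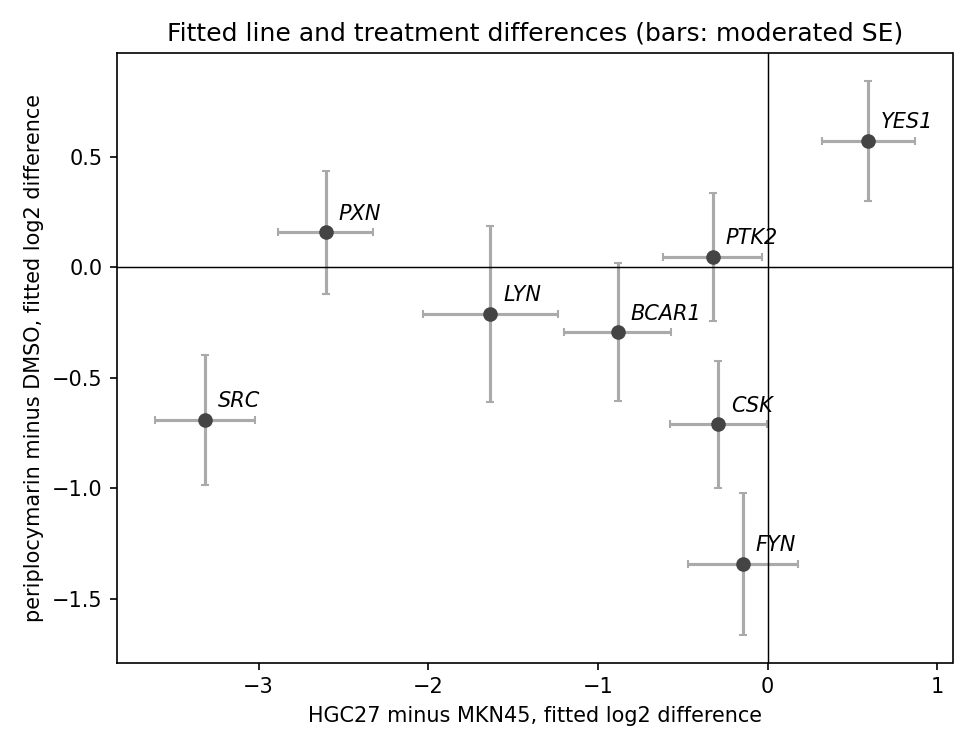
Fitted log2(FPKM + 1) difference of HGC27 minus MKN45 (horizontal) against periplocymarin minus DMSO (vertical) for the 8 genes, with moderated standard errors as bars. SRC, PXN and LYN lie far to the left, and FYN lies lowest at -1.34 and close to 0 on the line axis.

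In order of level, YES1 was first in every library and the order below it differed by line. In MKN45, PXN and then SRC followed YES1 in both libraries. In HGC27, SRC was last in both, with PTK2, CSK and PXN in places 2 to 4 in an order that differed between treatments. Neighbours whose counting intervals overlapped were FYN and BCAR1 in periplocymarin HGC27, PXN and FYN in DMSO HGC27, PTK2 and LYN in periplocymarin MKN45, PTK2 and CSK in DMSO MKN45, and BCAR1 and LYN in DMSO MKN45. YES1 lay above 94.2% of tested genes by its mean over the 4 libraries and BCAR1 above 19.6%.

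Among 4223 protein-coding genes averaging 10 FPKM or more, the 3 whose centred log2(FPKM + 1) profile over the 4 libraries lay closest to that of SRC were LRP5 (Euclidean distance 0.26), GMDS (0.27) and SEL1L3 (0.28). All 3 were far lower in HGC27 than in MKN45: LRP5, for example, stood at 4.29 FPKM in periplocymarin HGC27 and 5.34 FPKM in DMSO HGC27, and at 41.6 FPKM in periplocymarin MKN45 and 66.1 FPKM in DMSO MKN45. The flat profile of PTK2 lay closest to those of RABL6 (0.057), ATP5MC1 (0.067) and NDUFV2 (0.078). With 4 libraries a likeness of this kind is a description.

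Regulators of the Src switch were then examined, 13 genes of which 11 were tested and 1 fell. Over both lines 3.17% of all genes tested were called lower, 3.43% higher and 6.61% either way, and a few calls in a list of this size, here or in the lists that follow, are no result about that list. MATK, the Csk-homologous kinase that also phosphorylates the Src tail, fell, at 0.985 FPKM in periplocymarin HGC27 and 7.60 FPKM in DMSO HGC27, and at 0.517 FPKM in periplocymarin MKN45 and 3.95 FPKM in DMSO MKN45. Both treated libraries lay below 1 FPKM and both vehicle libraries above 3 FPKM. Its fitted difference was -1.91 ± 0.31 (limma adjusted p = 0.0232). MATK passed the filter only through the vehicle libraries, and its call was lost with no filter (adjusted p = 0.346) and with no block (adjusted p = 0.828). The other 10 did not pass. CBLB, a ubiquitin ligase, had the next largest fitted difference at -0.82 ± 0.31 (limma adjusted p = 0.120), and the list median was -0.054 against 0.062 over all genes tested. Of the phosphatases that open the switch, PTPN1 was at 0.53 ± 0.28 (limma adjusted p = 0.246) and PTPRA at -0.18 ± 0.29 (adjusted p = 0.717).

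Of 14 Cas, Crk and DOCK genes, 11 were tested, 1 rose and 10 did not pass (median 0.0053), where 3.43% of all genes tested were called higher. CRKL, the Crk-like adaptor that binds phosphorylated BCAR1, rose. It stood at 52.9 FPKM in periplocymarin HGC27 and 19.5 FPKM in DMSO HGC27, and at 40.4 FPKM in periplocymarin MKN45 and 21.4 FPKM in DMSO MKN45. The fitted difference was 1.14 ± 0.28 (limma adjusted p = 0.0464), and the call was lost under quantile normalization (0.72, adjusted p = 0.130), cyclic loess (0.66, adjusted p = 0.163) and library totals alone (0.86, adjusted p = 0.0519). Its relative CRK was at 0.82 ± 0.31 and did not pass (adjusted p = 0.124). BCAR3, a partner of BCAR1, had the second largest fitted difference, -0.88 ± 0.33 (adjusted p = 0.116). It passed the filter only through the vehicle libraries, at 1.66 FPKM in DMSO HGC27 and 2.26 FPKM in DMSO MKN45. With periplocymarin it was at 0.215 FPKM in HGC27 and 1.10 FPKM in MKN45.

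Of 15 paxillin relatives and partners, 12 were tested and none passed (median 0.12). ARHGEF6, an exchange factor for Rac, was at 0.820 FPKM in periplocymarin HGC27 and 7.56 FPKM in DMSO HGC27, and at 0.0318 FPKM in periplocymarin MKN45 and 0.0154 FPKM in DMSO MKN45 (-1.11 ± 0.49, limma adjusted p = 0.169). ARHGEF6 passed the filter only through DMSO HGC27. NCK2, an SH2 and SH3 adaptor, was at -0.78 ± 0.28 (adjusted p = 0.110). Of 19 structural focal adhesion genes, 17 were tested and 2 fell, while 15 did not pass (median 0.21), where 3.17% of all genes tested were called lower. FERMT1, kindlin-1, an activator of integrins in epithelia, fell by 1.75 ± 0.28 (limma adjusted p = 0.0240). It stood at 0.618 FPKM in periplocymarin HGC27 and 4.36 FPKM in DMSO HGC27, and at 6.66 FPKM in periplocymarin MKN45 and 25.1 FPKM in DMSO MKN45. TLN2, a talin that links integrins to actin, was at 0.645 FPKM in periplocymarin HGC27 and 2.99 FPKM in DMSO HGC27, and at 0.405 FPKM in periplocymarin MKN45 and 2.14 FPKM in DMSO MKN45. It fell by 1.22 ± 0.31 (limma adjusted p = 0.0499), a call lost under quantile normalization (-0.88, adjusted p = 0.125) and cyclic loess (-0.83, adjusted p = 0.158). TLN2 too passed the filter only through the vehicle libraries, and with no filter the call was lost (adjusted p = 0.346).

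Of 15 Src substrates at the membrane and on actin, all 15 were tested, and CAV1, the caveolin, rose while 14 did not pass (median 0.32), against 3.43% of all genes tested called higher. CAV1 stood at 8.65 FPKM in periplocymarin HGC27 and 2.55 FPKM in DMSO HGC27, and at 318 FPKM in periplocymarin MKN45 and 22.5 FPKM in DMSO MKN45 (2.60 ± 0.47, limma adjusted p = 0.0247). SH3PXD2A, the podosome scaffold Tks5, was at -1.18 ± 0.35 (adjusted p = 0.0690). Of 14 genes of the proposed glycoside signalling complex, CAV1 included, 12 were tested and CAV1 alone rose (median 0.16), against the same 3.43%. CAVIN1, its coat partner, was at 1.23 ± 0.45 and did not pass (adjusted p = 0.118). It stood at 109 FPKM in periplocymarin HGC27 and 20.7 FPKM in DMSO HGC27. In MKN45 it was at 2.23 FPKM with periplocymarin and 1.98 FPKM with DMSO, so the difference lay mostly in HGC27. Leaving out the line block, or the filter on low values, left none of these pathway genes past the threshold, and no gene at all.

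**Figure D5:**
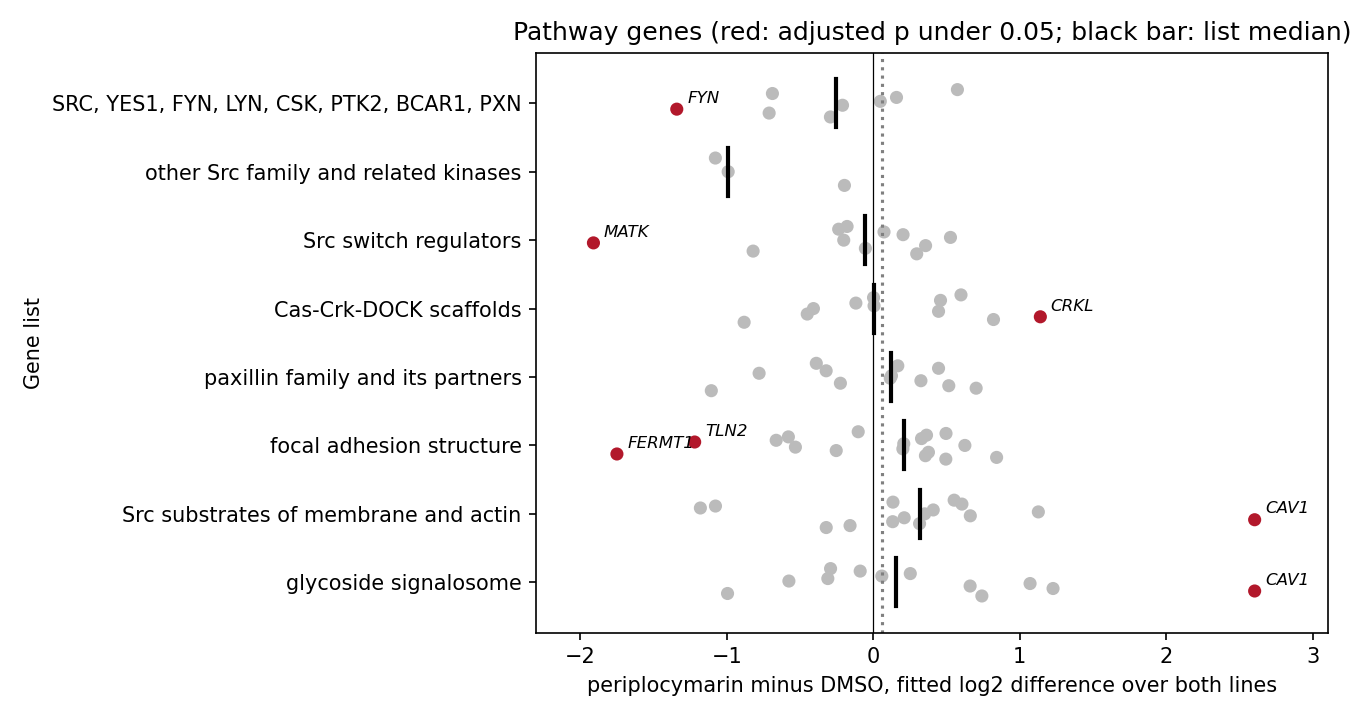
Fitted periplocymarin minus DMSO difference over both lines (horizontal axis, log2) for the tested genes of each list (1 point a gene, spread vertically for sight only), with list medians as black bars and the median of all tested genes as a dotted line. Red, named points passed at an adjusted p under 0.05: FYN, MATK, FERMT1 and TLN2 to the left, CRKL and CAV1, which is on 2 lists, to the right.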

How the data were processed

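Messenger RNA of 4 libraries was analysed from 1 table of 62710 Ensembl genes, of which 62639 were paired with a symbol. HISAT2 2.1.0, fastp 2.0 and hg38 are named, without roles, per the submitters' processing notes. For the counter, annotation and strand the sources used here give nothing. From the values, the authors deposited FPKM. Reads were recovered from the steps between low values with GENCODE 29 lengths (15204 of 30457 genes whole at a tolerance of 0.0001 reads). A length was searched for genes above 0 in at least 3 libraries that were not whole there. With either kind of length, 20299 of 20299 genes above 0 in at least 3 libraries had whole reads. These reads served for counting error, a filter and alternatives. Of the 8 members, SRC, LYN, CSK and BCAR1 used searched lengths. For other genes reads were estimated at the GENCODE length.

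Values were analysed as log2(FPKM + 1) with limma 3.58.1 (R 4.3.3) for genes averaging 1 FPKM and 10 reads or more, with treatment and line as terms (lmFit, eBayes with trend, 8.53 prior and 1 residual degree of freedom), and p-values were Benjamini-Hochberg adjusted over all 12353 genes. The fit was tested on simulated data with an assumed spread. It called 36.7% of 2-fold and 97.3% of 4-fold changes there, and 6.07% of its calls were false. A gene that did not pass may therefore still differ. No label names replicate cultures, so p-values do not measure the spread between cultures. For each gene the residual is how far the treatment difference disagrees between the lines. It is weighed with a spread borrowed from all genes, which has more degrees of freedom.

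The members and lists were chosen with earlier results of these data known. Named are the 8 members, relatives of the Src family list (the summed family level leaves out 1 planned gene, which is not reported here), and from each other list the genes that passed and the 2 with the largest fitted difference. PTPN1, PTPRA and CRK were named after their values were seen. Alternatives were quantile, library-total and cyclic loess normalization (the last chosen after seeing the data), limma-voom, a pseudocount of 0.1, a 10 FPKM floor, no filter and no block.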

Additional observations from a re-analysis of the deposited data

Results flagged for a closer look

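LYN and PTK2 moved opposite ways in the 2 lines. For LYN the HGC27 difference minus the MKN45 difference was -1.63 on the log2(FPKM + 1) scale, and for PTK2 it was 0.37. With library totals alone PTK2 was lower in both lines, at -0.06 in HGC27 and -0.34 in MKN45, so its opposite signs depend on the normalization. With 1 library per group neither difference between lines was tested. The LYN reads numbered 52 in periplocymarin HGC27 and 351 in DMSO HGC27, and 943 in periplocymarin MKN45 and 880 in DMSO MKN45.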

How the results depend on the processing

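Directions of SRC, YES1, FYN, CSK and BCAR1 over both lines were kept under every alternative that tested them, BCAR1 at -0.00086 in the nearest case. LYN turned to 0.033 (quantile) and 0.031 (cyclic loess), PTK2 to -0.0019 (quantile), -0.198 (totals alone) and -0.041 (cyclic loess), and PXN to -0.094 (totals alone) and -0.155 (cyclic loess). Totals alone multiplies every gene of a library by 1 factor. That factor is larger for DMSO than for periplocymarin in each line, which lowers the treatment differences. The cause under quantile and cyclic loess was not tested. Members called over both lines numbered 0, in place of 1, with quantile, cyclic loess, no filter, the 10 FPKM floor (which leaves YES1 and PXN) and no block, and FYN stayed called with totals alone, a pseudocount of 0.1 and limma-voom.

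Over both lines 424 genes were higher and 392 lower. Higher genes numbered 231 with quantile, 208 with cyclic loess, 1055 with the floor, 750 with the pseudocount and 855 with limma-voom. Lower genes numbered 1162 with totals alone (against 356 higher), 199 with the floor, 730 with the pseudocount and 668 with limma-voom. Without a filter or a block 0 genes passed, while 4306 and 696 had an unadjusted p under 0.05. The median of all genes moved to -0.16 with totals alone and 0.38 at the floor, in place of 0.062.

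Between lines 2012 genes were higher in HGC27 and 2420 lower. These became 440 and 647 without a filter, 786 and 1051 at the floor, with 1 member called in place of 3, and 830 and 1126 with no block. Within HGC27, 1149 genes were higher and 1228 lower by at least 1. Totals alone gave 486 and 1940 with 2 members, the floor 150 lower with 0 members, the pseudocount 1847 lower with 2 members, and quantile and cyclic loess 686 and 684 higher with 0 members each. Within MKN45, with 977 higher and 1064 lower, totals alone gave 564 higher with 2 members, the floor 611 and 210 with 0 members, the pseudocount 1726 lower, and quantile 2 members.

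With reads not divided by length, YES1 made up 86.4% in DMSO HGC27, 69.0% in periplocymarin MKN45 and 43.2% in DMSO MKN45. Of the 80 distinct genes of the pathway lists that were tested, 2 rose and 3 fell, where 6.61% of all genes tested passed either way, so the count says nothing about the lists. With quantile 1 rose, and with totals alone 1 rose and 7 fell. No paired analysis by replicate number was possible because the labels give none. Depth limits SRC and LYN in treated HGC27, at 26 and 52 reads.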
